A study of Mus musculus with 8 samples.

Results

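The glutathione and NRF2 antioxidant genes described here are 10 mouse genes, Nfe2l2, Slc7a11, Gclc, Gclm, Gsr, Srxn1, Prdx1, Txnrd1, Nqo1 and Ephx1, out of 18782 genes measured on the arrays. They were chosen by name, as genes of glutathione supply and of the response controlled by the transcription factor NRF2. Each is represented by a probe set annotated with that symbol alone, and all 10 were measured. Prdx1 had 2 such probe sets, of which the one with the higher mean over the arrays was used.

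RNA came from lung macrophages of C57BL/6 mice sorted by flow cytometry. Knockout mice (KO, CD11cCre/PPARg fl/fl) carry a Cre recombinase under the control of CD11c together with Pparg flanked by loxP sites, so deletion is directed to cells that express CD11c. Control mice (labelled WT, PPARg fl/fl) carry the same flanked Pparg without Cre. There were 4 groups of 2 arrays, KO day 2, WT day 2, KO day 11 and WT day 11 after birth, and each array held the pooled cells of 2 mice. Day 11 cells were alveolar macrophages positive for CD45 and Siglec-F and high in CD11c and autofluorescence, gated as CD11b high in KO and CD11b low in WT. Day 2 cells were precursors of alveolar macrophages, positive for CD45 and for the macrophage marker ADGRE1 and high in CD11c, from either a gate intermediate in Siglec-F and CD11b or a gate low in Siglec-F and high in CD11b. The labels do not say which genotype got which day 2 gate. At either age the deletion therefore cannot be told apart from the gate. P-values measure the spread between pools of mice.

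NRF2, the product of Nfe2l2, is held at low levels by KEAP1 until oxidants or electrophiles modify KEAP1, and then enters the nucleus, pairs with a small MAF protein and binds antioxidant response elements near its target genes. Its targets include the cystine importer, the enzymes that build glutathione, the enzymes that keep glutathione and thioredoxin reduced, and enzymes that detoxify quinones and epoxides. Alveolar macrophages live in an oxygen-rich air space, clear inhaled particles and surfactant lipid, and depend for their lipid metabolism on PPARγ, a nuclear receptor encoded by Pparg. Slc7a11 is also a target of ATF4, the transcription factor of the amino acid stress response.

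The promoters of 4 genes are shown because their signals moved in different ways between the genotypes: Slc7a11 and Srxn1 were higher in KO at both ages, Ephx1 was higher in KO and rose with age, and Prdx1 did not pass the test at either age. The sequences are from RefSeq on build GRCm38.p6 and run 5′ to 3′ along the gene, from 250 bases before a transcription start to 50 bases after it. Capitals mark matches, on either strand, to the core of the antioxidant response element as TGACNNNGC or TGAGNNNGC, or to an ATF4-type element as TGATGNAA. The first core overlaps the AP-1 motif wherever its letters continue as TGACTCA, as in Prdx1, and the second wherever they continue as TGAGTCA.
Slc7a11, chr3:50443564-50443863, minus strand: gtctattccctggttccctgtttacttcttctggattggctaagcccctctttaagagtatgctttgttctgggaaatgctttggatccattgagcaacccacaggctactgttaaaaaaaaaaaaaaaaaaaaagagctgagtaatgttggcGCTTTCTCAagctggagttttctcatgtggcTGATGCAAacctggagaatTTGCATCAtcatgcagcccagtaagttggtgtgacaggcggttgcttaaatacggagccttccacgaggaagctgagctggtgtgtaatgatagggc
Srxn1, chr2:152105274-152105573, plus strand: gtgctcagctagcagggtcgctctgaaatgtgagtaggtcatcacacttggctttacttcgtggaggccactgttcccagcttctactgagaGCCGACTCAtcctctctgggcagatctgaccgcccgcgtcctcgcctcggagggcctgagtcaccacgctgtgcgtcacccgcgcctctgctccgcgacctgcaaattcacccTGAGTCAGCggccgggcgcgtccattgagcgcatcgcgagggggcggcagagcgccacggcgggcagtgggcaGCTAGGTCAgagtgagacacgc
Ephx1, chr1:181017520-181017819, minus strand: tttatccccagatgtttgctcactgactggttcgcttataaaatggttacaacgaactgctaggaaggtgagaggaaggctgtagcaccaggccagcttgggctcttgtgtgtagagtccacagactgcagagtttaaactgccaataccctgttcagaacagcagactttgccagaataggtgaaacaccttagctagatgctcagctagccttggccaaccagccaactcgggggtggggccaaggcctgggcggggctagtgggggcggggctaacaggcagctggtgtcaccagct
Prdx1, chr4:116685349-116685648, plus strand: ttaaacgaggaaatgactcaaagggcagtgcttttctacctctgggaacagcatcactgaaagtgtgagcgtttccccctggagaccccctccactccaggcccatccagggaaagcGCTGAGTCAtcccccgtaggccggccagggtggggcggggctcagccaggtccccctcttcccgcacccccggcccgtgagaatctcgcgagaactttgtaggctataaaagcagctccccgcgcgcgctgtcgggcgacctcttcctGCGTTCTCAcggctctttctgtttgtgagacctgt

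The Slc7a11 window held 1 match to TGAGNNNGC and 2 to TGATGNAA, which face each other on opposite strands. It lies inside the annotated gene, which spans chr3:50364936-50499087. The Srxn1 window held 2 matches to TGAGNNNGC and 1 to TGACNNNGC, and the Prdx1 window held 1 of each. The Ephx1 window held none of the 3 patterns. RefSeq windows were found for 8 of the 10 genes, 10 windows in all because Txnrd1 has 3. At least 1 of the first 2 patterns occurred in 6 of these 10 windows and in 27.8% of all 32851 windows. The 6 windows belong to Gclm, Nfe2l2, Prdx1, Slc7a11, Srxn1 and Txnrd1. TGACNNNGC alone occurred in 12.4%, TGAGNNNGC in 17.6% and TGATGNAA in 3.97% of all windows. Genes with a match thus stood both among those called higher in KO and among those without a call at either age. Elements outside these windows were not searched for, and Gclc and Gsr had no window.

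Signals are log2 values, so a difference of 1 is a 2-fold change, and a gene is called at an adjusted p under 0.05 from limma after Benjamini-Hochberg adjustment over all 18782 genes. Each array had a median signal of 5.35. Arrays of a group correlated with r of 0.9942 to 0.9983 over all genes. Pparg itself had 10.55 and 10.74 in KO against 10.89 and 11.01 in WT at day 2, and 11.32 and 11.36 in KO against 11.18 and 11.13 in WT at day 11; where its probes lie relative to the deleted part is not given, so this checks nothing. Its known target Cidec was lower in KO by 4.03 at day 2 and by 4.02 at day 11 (log2). Itgam, which encodes CD11b, was higher in KO by 3.05 and 4.49, and the KO minus WT difference of Siglecf was -2.58 and -2.02, at days 2 and 11. The first KO array at day 2 stood apart in interferon response genes, whose median signal over 27 genes was 9.30 there, 6.58 on its replicate and 5.70 to 6.27 elsewhere. At day 2, called higher in KO were 6 of 8 neutrophil markers (median 6.19 and 6.20 in KO, 5.08 and 4.92 in WT; Cxcr2 was called lower), 4 of 6 dendritic cell markers (6.37 and 6.23 in KO, 4.82 and 4.81 in WT) and 3 of 5 endothelial markers (7.35 and 6.00 in KO, 5.73 and 5.75 in WT). At day 11, 2 of the neutrophil and 1 of the dendritic cell markers were called higher and Cxcr2 again lower. Of 18 genes known to rise during tissue dissociation, 9 were called higher in KO at day 2, with Egr3 (1.38) and Ier3 (0.88) among them. At day 11, 9 were called higher, with Egr3 (1.23) and Ier3 (1.13) among them, and 1 lower. Their list medians were 10.29 and 10.36 in KO against 10.28 and 10.33 in WT at day 2, and 10.37 and 10.52 in KO against 10.38 and 10.34 in WT at day 11. The list spans signals from Hspb1 (5.205 to 5.53) to Hspa8 (12.1 to 12.21), so its median can miss shifts of single genes. At day 2, Junb (0.66) and Nr4a1 (0.64) were also called higher, while Hspa8 (0.05) and Dnajb1 (-0.06) were not called. Markers of eosinophils (4), mast cells and basophils (5) and T and NK cells (6) were below the median signal of all genes (5.74) on all arrays. Markers of club and alveolar epithelium (9) had medians of 6.11 to 7.12 over the arrays. In KO, 1 of them was called lower at day 2 and 3 at day 11, Scgb1a1 (7.943 to 9.266 over all arrays) at both. At day 2, 6 of 8 alveolar macrophage markers were called lower in KO and 1 higher. The day 11 counts were 5 lower and 1 higher. Beside the counts of this paragraph, 8.86% of all genes were called higher and 11.2% lower in KO at day 2. At day 11 the shares of all genes were 9.34% higher and 9.29% lower. The 19 cell cycle genes had medians of 8.75 and 8.73 in KO against 9.68 and 9.70 in WT at day 2, and 8.45 and 8.16 in KO against 9.71 and 9.58 in WT at day 11. The part of any of these in the results below was not tested.

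Of the 10 genes, 5 were called between KO and WT at day 2, 4 higher and 1 lower, beside 20.1% of all genes called (8.86% higher and 11.2% lower). At day 11 again 5 were called, 4 higher and 1 lower, beside 18.6% of all genes (9.34% higher and 9.29% lower). Slc7a11, Srxn1 and Ephx1 were higher and Gsr was lower at both ages, while Nfe2l2 was called at day 2 and Gclc at day 11. The median difference of the 10 genes was 0.10 at day 2, beside -0.03 over all genes, and 0.16 at day 11, beside 0.00. The genes therefore did not move as a block, and differences ran between -0.37 and 1.38 at day 2 and between -0.38 and 2.64 at day 11. At day 2 the KO and WT arrays did not overlap for any of the 10 genes, and at day 11 for 9, but 58.2% and 56.3% of all genes also had groups without overlap at these ages.

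**Figure D1:**
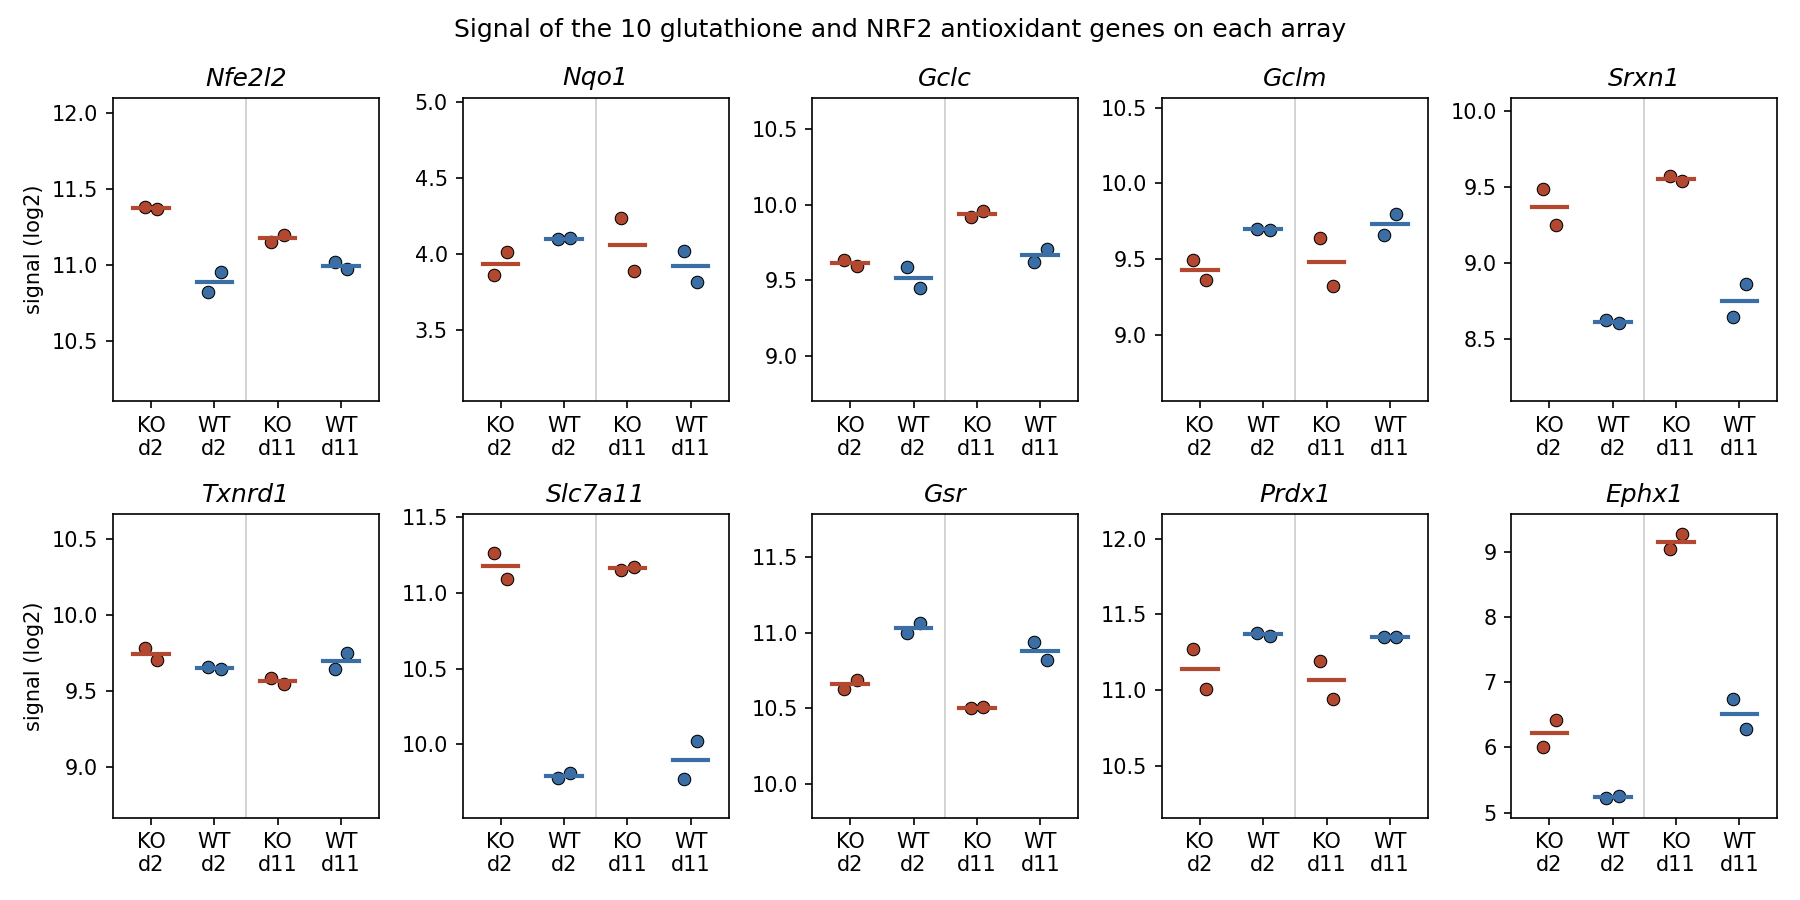
Log2 signal (vertical axis) of the 10 genes on each of the 8 arrays, with KO in red and WT in blue at day 2 (left of the grey line) and day 11 (right); points are arrays, lines are means of 2, and each panel has its own scale of at least 2 log2 units. Slc7a11, Srxn1 and Nfe2l2 have all KO arrays above all WT arrays, and Gsr, Gclm and Prdx1 have them below. Over all genes, 20.8% are separated in this way in either direction. Ephx1 is highest in KO at day 11.

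Nfe2l2 was higher in KO precursors at day 2. Its signal was 11.38 and 11.37 in KO against 10.82 and 10.95 in WT at day 2, and 11.15 and 11.20 in KO against 11.02 and 10.97 in WT at day 11. All 4 KO arrays lay above all 4 WT arrays, with a wider gap at day 2. The difference was 0.49 ± 0.07 (SE, n = 2 each) or 1.4-fold at day 2 (adjusted p = 0.00164), and 0.18 ± 0.07 at day 11 (adjusted p = 0.117), which did not pass. The change of the difference between the ages was -0.31 ± 0.10 and did not pass either (adjusted p = 0.154), so the genotype difference is not shown to differ between the ages. In a sorted population, fewer cells of a type and less RNA per cell cannot be told apart for this or any gene below.

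Slc7a11, which encodes the transporter xCT that imports cystine in exchange for glutamate and so supplies the cysteine of glutathione, had the largest day 2 difference of the 10. It had 11.26 and 11.09 in KO against 9.776 and 9.809 in WT at day 2, and 11.15 and 11.17 in KO against 9.774 and 10.02 in WT at day 11. Every KO array was at least 1 log2 unit above every WT array, and within a genotype the ages overlapped. At day 2 the difference was 1.38 ± 0.09, or 2.61-fold (adjusted p = 5.81e-05). At day 11 it was 1.26 ± 0.09, or 2.4-fold (adjusted p = 8.87e-05). Neither age comparison was called for it, with a difference of -0.02 ± 0.09 in KO and 0.10 ± 0.09 in WT, and the change of the genotype difference with age was -0.12 ± 0.13 (adjusted p = 0.725). Under the 15 alternative settings its difference stayed between 1.30 and 1.47 at day 2 and between 1.14 and 1.39 at day 11, always called.

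The subunits of glutamate-cysteine ligase, the enzyme that catalyses the rate-limiting step of glutathione synthesis, differed in direction. Gclc, the catalytic subunit, had 9.919 and 9.957 in KO against 9.625 and 9.706 in WT at day 11, and 9.636 and 9.598 in KO against 9.588 and 9.449 in WT at day 2. It was 1.21-fold higher in KO at day 11 (0.27 ± 0.07, adjusted p = 0.0322), a call that was lost when any single day 11 array was left out (adjusted p between 0.0729 and 0.179). At day 2 the difference of 0.10 ± 0.07 did not pass (adjusted p = 0.405). Gclm, the modifier subunit, had 9.494 and 9.363 in KO against 9.703 and 9.694 in WT at day 2, and 9.643 and 9.325 in KO against 9.660 and 9.802 in WT at day 11. Its KO arrays lay below its WT arrays at both ages. The differences of -0.27 ± 0.11 at day 2 (adjusted p = 0.137) and -0.25 ± 0.11 at day 11 (adjusted p = 0.186) did not pass. Without the first KO array at day 11 the day 11 difference was -0.41 and was called (adjusted p = 0.0365), and without the second it was -0.09 (adjusted p = 0.682).

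Gsr, glutathione reductase, which returns oxidised glutathione to its reduced form with NADPH, was lower in KO at both ages. It had 10.63 and 10.69 in KO against 11.00 and 11.06 in WT at day 2, and 10.50 and 10.51 in KO against 10.94 and 10.82 in WT at day 11. All 4 KO arrays lay below all 4 WT arrays, at each age by similar amounts. The differences were -0.37 ± 0.07 at day 2 (adjusted p = 0.00644) and -0.38 ± 0.07 at day 11 (adjusted p = 0.00649), or 1.29-fold and 1.3-fold lower. Each call was lost at 1 left-out array, the second WT array at day 2 or the first WT array at day 11 (adjusted p = 0.0532 in both cases).

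Among the genes of the peroxiredoxin and thioredoxin cycle, Srxn1 was higher in KO and Prdx1 and Txnrd1 were not called at either age. Srxn1 encodes sulfiredoxin, which repairs overoxidised peroxiredoxins. It had 9.486 and 9.253 in KO against 8.624 and 8.602 in WT at day 2, and 9.572 and 9.538 in KO against 8.640 and 8.863 in WT at day 11. All KO arrays were above all WT arrays, and the gap was close to the same at both ages. Its KO minus WT difference was 0.76 ± 0.10, or 1.69-fold, at day 2 (adjusted p = 0.00133). The day 11 value was 0.80 ± 0.10, or 1.75-fold (adjusted p = 0.00102). It stayed called under all 15 alternatives, between 0.64 and 0.87 at day 2 and between 0.69 and 0.91 at day 11.

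Prdx1, a peroxiredoxin that reduces hydrogen peroxide, had 11.27 and 11.01 in KO against 11.38 and 11.36 in WT at day 2, and 11.19 and 10.94 in KO against 11.35 and 11.35 in WT at day 11. KO arrays were lower than WT arrays, and the KO pairs were spread more widely than the WT pairs. The differences of -0.23 ± 0.11 (adjusted p = 0.192) and -0.29 ± 0.11 (adjusted p = 0.119) did not pass. Its second probe set kept the KO arrays below the WT arrays, with 11.13 and 10.88 in KO against 11.20 and 11.24 in WT at day 2, and 11.10 and 10.92 in KO against 11.17 and 11.21 in WT at day 11. Whether either probe set also reads Prdx1-like pseudogenes was not tested.

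Txnrd1, the cytosolic thioredoxin reductase, had 9.784 and 9.704 in KO against 9.658 and 9.647 in WT at day 2, and 9.586 and 9.546 in KO against 9.644 and 9.751 in WT at day 11. Its KO arrays were thus slightly above WT at day 2 and slightly below at day 11. The differences were 0.09 ± 0.07 (adjusted p = 0.409) and -0.13 ± 0.07 (adjusted p = 0.247), and neither passed. The change of the difference with age was -0.22 ± 0.09 (adjusted p = 0.285).

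Nqo1, a quinone reductase used widely as a readout of NRF2 activity, was near the bottom of the range on every array. It had 3.864 and 4.011 in KO against 4.097 and 4.108 in WT at day 2, and 4.239 and 3.887 in KO against 4.018 and 3.819 in WT at day 11, all below the array median of 5.35. The arrays overlapped at day 11, and at day 2 KO lay just below WT. No difference was called (adjusted p = 0.422 at day 2 and 0.523 at day 11), and at a signal this low a change in Nqo1 RNA may not be detectable.

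Ephx1, microsomal epoxide hydrolase, which hydrolyses reactive epoxides to diols, had the largest difference of the 10 at day 11. It had 9.042 and 9.273 in KO against 6.751 and 6.283 in WT at day 11, and 6.007 and 6.422 in KO against 5.228 and 5.262 in WT at day 2. KO arrays were above WT arrays at each age, but day 2 KO arrays overlapped day 11 WT arrays. The day 2 WT signals were below the array median of 5.35 and the files hold no detection call, so how far they stand above background is not known. The day 11 difference was 2.64 ± 0.18, or 6.24-fold (adjusted p = 5.55e-05), and the day 2 difference was 0.97 ± 0.18, or 1.96-fold (adjusted p = 0.00673). These calls held under all 15 alternatives at each age. The genotype difference was larger at day 11 than at day 2 by 1.67 ± 0.25 (adjusted p = 0.0147); Ephx1 was the only gene of the 10 with such a call, beside 3.27% of all genes. That call was lost without the first WT array at day 2 (adjusted p = 0.0753) or the second (adjusted p = 0.0755), while the estimate stayed between 1.44 and 1.91.

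**Figure D2:**
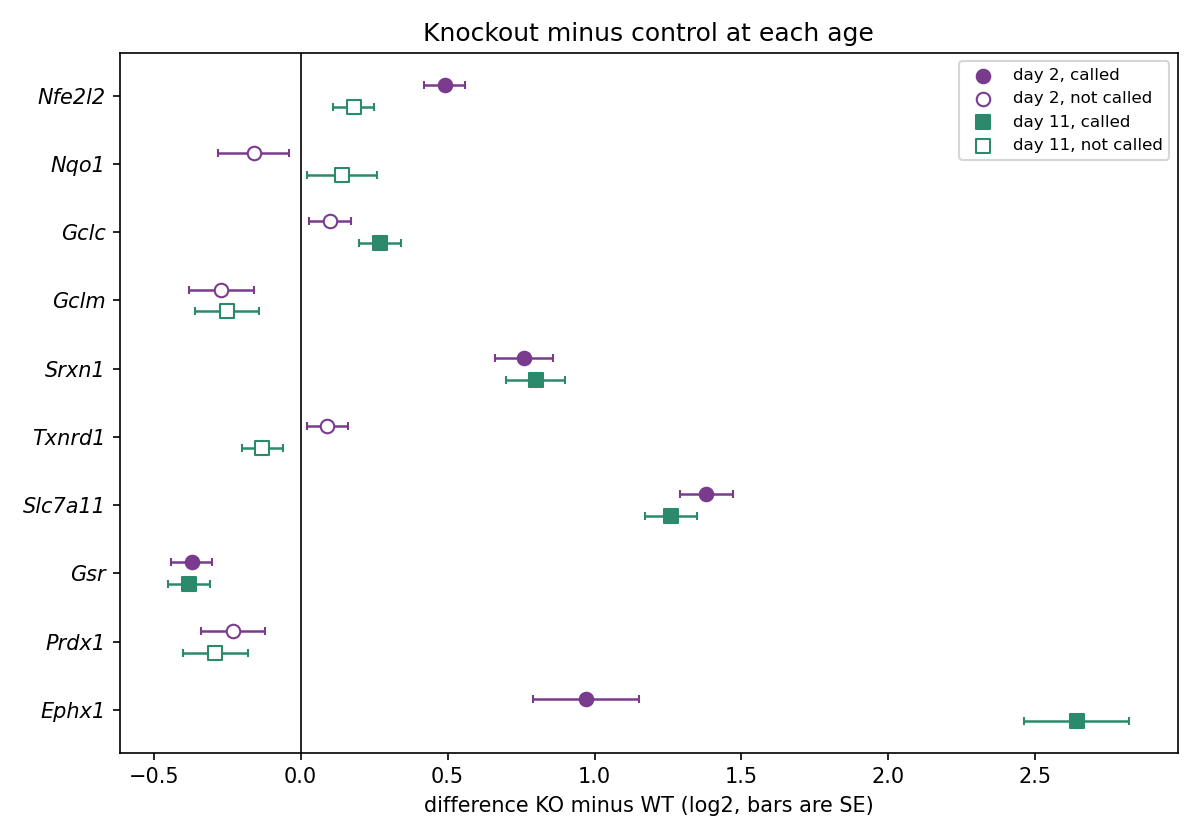
Difference KO minus WT (log2, horizontal axis) with its SE for the 10 genes at day 2 (circles) and day 11 (squares); filled symbols passed the test and open ones did not. Slc7a11, Srxn1 and Ephx1 lie right of 0 at both ages, Gsr lies left of 0 at both, and Ephx1 moves to 2.64 at day 11.

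Without the KO array at day 2 that stood apart in interferon genes, the day 2 calls held for Slc7a11 (1.30, adjusted p = 0.000344), Ephx1 (1.18, adjusted p = 0.005), Srxn1 (0.64, adjusted p = 0.00579), Nfe2l2 (0.48, adjusted p = 0.00943) and Gsr (-0.34, adjusted p = 0.0355). Among the 10 genes, the widest gap between that array and its replicate was that of Ephx1 (0.42), with 6.007 and 6.422. The widest gap of a day 11 WT pair was also that of Ephx1 (0.47).

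Age was compared within each genotype. Between day 11 and day 2, Ephx1 rose in KO by 2.94 ± 0.18 (7.69-fold, adjusted p = 8.52e-05) and in WT by 1.27 ± 0.18 (2.41-fold, adjusted p = 0.0083). The WT call was lost without either WT array at day 2 or without the first WT array at day 11 (adjusted p between 0.0554 and 0.076). Gclc rose in KO by 0.32 ± 0.07 (adjusted p = 0.0206), a call lost when any KO array was left out. No other gene of the 10 was called with age, so 2 of 10 were called in KO, beside 15.5% of all genes (8.81% higher and 6.71% lower at day 11), and 1 of 10 in WT, beside 5.30% of all genes (2.81% higher). Nfe2l2 was lower at day 11 in KO by 0.20 ± 0.07 without a call (adjusted p = 0.0921). The gates also differed between the ages, so age and gate cannot be told apart.

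**Figure D3:**
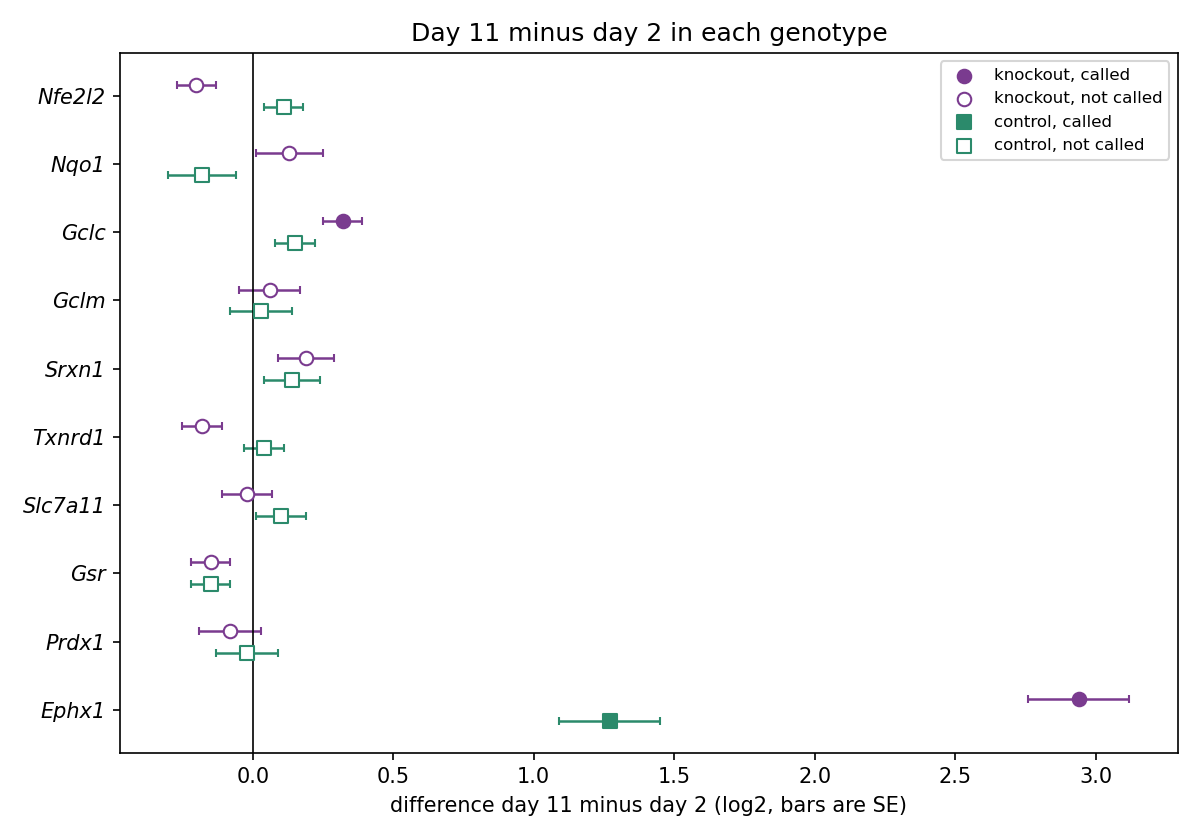
Difference day 11 minus day 2 (log2, horizontal axis) with its SE for the 10 genes in KO (circles) and WT (squares); filled symbols passed the test. Ephx1 is far right of 0 in both genotypes (2.94 in KO, 1.27 in WT), Gclc is called in KO, and the other 8 genes lie within 0.20 of 0 in both.

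The genotype difference averaged over both ages was added after the values at each age were seen. It called 8 of the 10 genes, 5 higher and 3 lower in KO, beside 27.2% of all genes (12.6% higher and 14.6% lower). Higher were Ephx1 (1.80 ± 0.13), Slc7a11 (1.32 ± 0.07), Srxn1 (0.78 ± 0.07), Nfe2l2 (0.34 ± 0.05, adjusted p = 0.00127) and Gclc (0.19 ± 0.05, adjusted p = 0.0273). Lower were Gsr (-0.37 ± 0.05, adjusted p = 0.000701), Gclm (-0.26 ± 0.08, adjusted p = 0.0419) and Prdx1 (-0.26 ± 0.08, adjusted p = 0.0391). Gclm lost its call under 8 of 14 alternatives, Prdx1 under 7 and Gclc under 5. All 4 KO arrays lay above all 4 WT arrays for Slc7a11, Srxn1 and Nfe2l2 and below them for Gsr, Gclm and Prdx1, 6 of 10 genes in all. Over all genes the same held for 20.8%, with 8.92% above and 11.9% below.

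Slc7a11 and Ephx1 were the only 2 of the 10 whose group means span at least 1 log2 unit. The array pattern of each was compared with that of other genes by Pearson's r over the 8 arrays. Compared were 1947 genes whose highest and lowest single arrays differ by at least 1 log2 unit, a looser condition. The 3 genes with the highest r are named. For Slc7a11 they were Kcnn4 (0.9963), a calcium-activated potassium channel, Irf5 (0.9942), an interferon regulatory factor, and Csf1 (0.9911), the macrophage growth factor, and 109 genes had an r of 0.95 or more. Kcnn4 had 9.945 and 9.542 in KO against 5.922 and 5.895 in WT at day 2. For Ephx1 they were Rnd3 (0.9903), Ccbe1 (0.9825) and Gabarapl1 (0.9824), with 40 genes at or above 0.95. The arrays share their groups, so these values describe a common order of groups.

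Related genes were taken from 10 lists written with earlier results of these data known. Of 17 regulators and partners of NRF2, 1 was called higher and 2 lower in KO at day 2, and 2 higher and 1 lower at day 11. The 3 called of 17 at each age are near the shares of all genes called given above, and with 1 array left out the count was as low as 1. Keap1, named here for its role although it was not called, differed by -0.31 ± 0.12 at day 2 (adjusted p = 0.107). Bach2, a repressor of the BACH family, had 6.034 and 6.109 in KO against 5.281 and 5.413 in WT at day 2 and was 1.65-fold higher (0.72 ± 0.11, adjusted p = 0.00207). At day 11 it was higher by 0.40 ± 0.11 (adjusted p = 0.0324), a call lost under 6 of 14 alternatives. Maff, a small MAF protein, was lower in KO by 0.54 ± 0.12 at day 2 and by 1.03 ± 0.12 at day 11 (adjusted p = 0.000865), where it had 8.160 and 8.005 in KO against 9.304 and 8.923 in WT. Mafg, another small MAF protein, was higher in KO at day 11 by 0.41 ± 0.08 (adjusted p = 0.00777). Leaving out an array ended the day 2 call of Maff for each of the 4 day 2 arrays (adjusted p up to 0.119) and that of Mafg for the second WT array at day 11 (adjusted p = 0.058).

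Of 21 other genes of glutathione synthesis and cycling, 5 were higher and 2 lower in KO at day 2, and 5 higher and 2 lower at day 11, beside 20.1% and 18.6% of all genes called. The median difference of the list was -0.03 at day 2 and 0.05 at day 11, beside -0.03 and 0.00 over all genes. With 1 array left out, 5 to 8 were called at day 2 and 3 to 7 at day 11. Under every alternative, 5 kept the call at day 2 and 2, Oplah and Anpep, at day 11. Anpep, an aminopeptidase that acts on the dipeptide released from extracellular glutathione and also on other peptides, had 11.41 and 10.93 in KO against 9.078 and 8.407 in WT at day 2, and 11.15 and 11.19 in KO against 7.575 and 8.402 in WT at day 11. That is a 5.38-fold difference at day 2 (adjusted p = 0.000984), with 9.07-fold at day 11 (adjusted p = 0.000279). Oplah, 5-oxoprolinase, which regains glutamate from oxoproline, was higher by 0.79 ± 0.08 and 0.63 ± 0.08 at days 2 and 11. Glrx5, a mitochondrial glutaredoxin of iron-sulfur cluster assembly, was lower by 0.51 ± 0.07 and 0.30 ± 0.07. Gss, glutathione synthetase, was lower at day 2 by 0.33 ± 0.07 (adjusted p = 0.0156), a call lost under 4 of 15 alternatives, among them those without the first KO or the first WT array at day 2 (adjusted p up to 0.097). The day 11 call of Glrx5 was lost without either KO array or the second WT array at day 11 (adjusted p up to 0.111). Slc3a2, the partner chain of Slc7a11, was named for that role and was not called, with a difference of 0.17 ± 0.06 at day 2 (adjusted p = 0.0785) and 0.08 ± 0.06 at day 11 (adjusted p = 0.451).

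Of all genes, 8.86% were called higher in KO at day 2 and 9.34% at day 11. Of 8 glutathione peroxidases, Gpx3 was the only one called higher in KO, at both ages. This secreted enzyme had 9.188 and 9.405 in KO against 8.269 and 8.387 in WT at day 2, and 8.874 and 8.562 in KO against 6.516 and 6.485 in WT at day 11. The difference was 0.97 ± 0.12 at day 2 (adjusted p = 0.000811) and 2.22 ± 0.12 at day 11 (adjusted p = 1.97e-05). Gpx4, which reduces lipid hydroperoxides, was lower in KO at day 2 by 0.41 ± 0.10 (adjusted p = 0.0235), a call lost without the first KO array or either WT array at day 2 (adjusted p up to 0.134).

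Of 21 glutathione S-transferases, 7 were called at day 2, all lower in KO, and 4 at day 11, 2 higher and 2 lower. Over all genes 20.1% were called at day 2 (11.2% lower) and 18.6% at day 11. With 1 array left out the 7 calls at day 2 became between 1 and 6, and Gstm4 (-0.63 ± 0.11, adjusted p = 0.00604) was the only one called under every alternative. In KO, 7 of the 21 were called higher and 1 lower at day 11 than at day 2, beside 8.81% and 6.71% of all genes. These 8 calls became between 3 and 9 under the alternatives, and Gstm1, Gstm3 and Mgst2 were called under every one. Gstm1 had 11.33 and 11.20 at day 11 against 9.982 and 10.40 at day 2 in KO (1.07 ± 0.13, adjusted p = 0.00181). Of 17 thioredoxin and peroxiredoxin genes, 3 were called at day 2, all lower in KO, and 4 at day 11, 2 higher and 2 lower, beside 20.1% and 18.6% of all genes. With 1 array left out the counts were as low as 1 at each age. Msra, a methionine sulfoxide reductase, was lower in KO by 0.72 ± 0.11 and 0.51 ± 0.11, and Sesn3, a sestrin, by 0.67 ± 0.13 and 0.84 ± 0.13, at days 2 and 11. Sesn3 lost its day 2 call without the second WT array at day 2 (adjusted p = 0.0588), and Msra its day 11 call without the second KO or the first WT array at day 11 (adjusted p up to 0.113).

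NADPH is the source of reducing power for Gsr and Txnrd1. Of 13 genes listed under NADPH supply, 1 was higher and 5 lower in KO at day 2. At day 11, 2 were higher and 6 lower. Over all genes 20.1% and 18.6% were called. The list is broad, and not every gene in it makes NADPH itself. Pgd, Me1 and Idh2, named for their role in making NADPH, were called at neither age, while Idh1 and H6pd, given below, were called at both. Averaged over both ages, Me1 was called lower in KO (-0.24 ± 0.06, adjusted p = 0.0269), a call lost under 6 of 13 alternatives. G6pdx had no matched probe set. The median difference of the list was -0.22 at day 2 and -0.25 at day 11, beside -0.03 and 0.00 over all genes. Me2, a mitochondrial malic enzyme, had 9.003 and 9.073 in KO against 10.52 and 10.60 in WT at day 2, and 8.752 and 8.598 in KO against 10.29 and 10.18 in WT at day 11. It was lower by 1.52 ± 0.08 (adjusted p = 1.62e-05) and by 1.56 ± 0.08 (adjusted p = 1.76e-05). Rpia, of the pentose phosphate pathway, was lower by 0.95 ± 0.08 and 0.58 ± 0.08 at days 2 and 11. Idh1, cytosolic isocitrate dehydrogenase, was lower by 0.59 ± 0.09 and 0.50 ± 0.09, and its day 11 call was lost under 1 of 15 alternatives. H6pd, which makes NADPH in the endoplasmic reticulum, was higher by 0.66 ± 0.09 and 0.87 ± 0.09.

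Of 26 other genes listed as NRF2 targets, 6 were higher and 2 lower in KO at day 2, and 7 were higher and 3 lower at day 11. Of all genes, 8.86% were called higher and 11.2% lower at day 2, and 9.34% higher and 9.29% lower at day 11. The median difference of the list was 0.08 at day 2 and 0.10 at day 11, beside -0.03 and 0.00 over all genes. Abcc1, an exporter of glutathione conjugates, had 9.066 and 8.915 in KO against 8.108 and 8.195 in WT at day 2 and was higher by 0.84 ± 0.08 there and by 0.79 ± 0.08 at day 11. Abcc3, a related exporter, had 7.279 and 6.851 in KO against 4.342 and 4.676 in WT at day 2, and was higher by 2.56 ± 0.21 at day 2 (adjusted p = 0.000131) and by 1.04 ± 0.21 at day 11 (adjusted p = 0.0106). Its WT signals, 4.237 to 4.676 over both ages, were below the array median, and whether they are above background is not known. Nqo2, a relative of Nqo1, was higher by 0.69 ± 0.07 at day 11 (adjusted p = 0.000272). At day 2 it was higher by 0.26 ± 0.07 (adjusted p = 0.0283), a call lost under 4 of 15 alternatives. In the other direction, Blvra, biliverdin reductase A, was lower by 1.08 ± 0.13 and 1.07 ± 0.13, and Abcc5 by 1.01 ± 0.07 and 0.69 ± 0.07. Hmox1, heme oxygenase-1, had 10.63 and 10.47 in KO against 10.95 and 11.21 in WT at day 11 and was lower by 0.53 ± 0.12 (adjusted p = 0.0177). That call was lost without the second KO or the second WT array at day 11 (adjusted p up to 0.113), and the day 11 call of Abcc3 without either WT array at day 11 (adjusted p up to 0.0659).

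**Figure D4:**
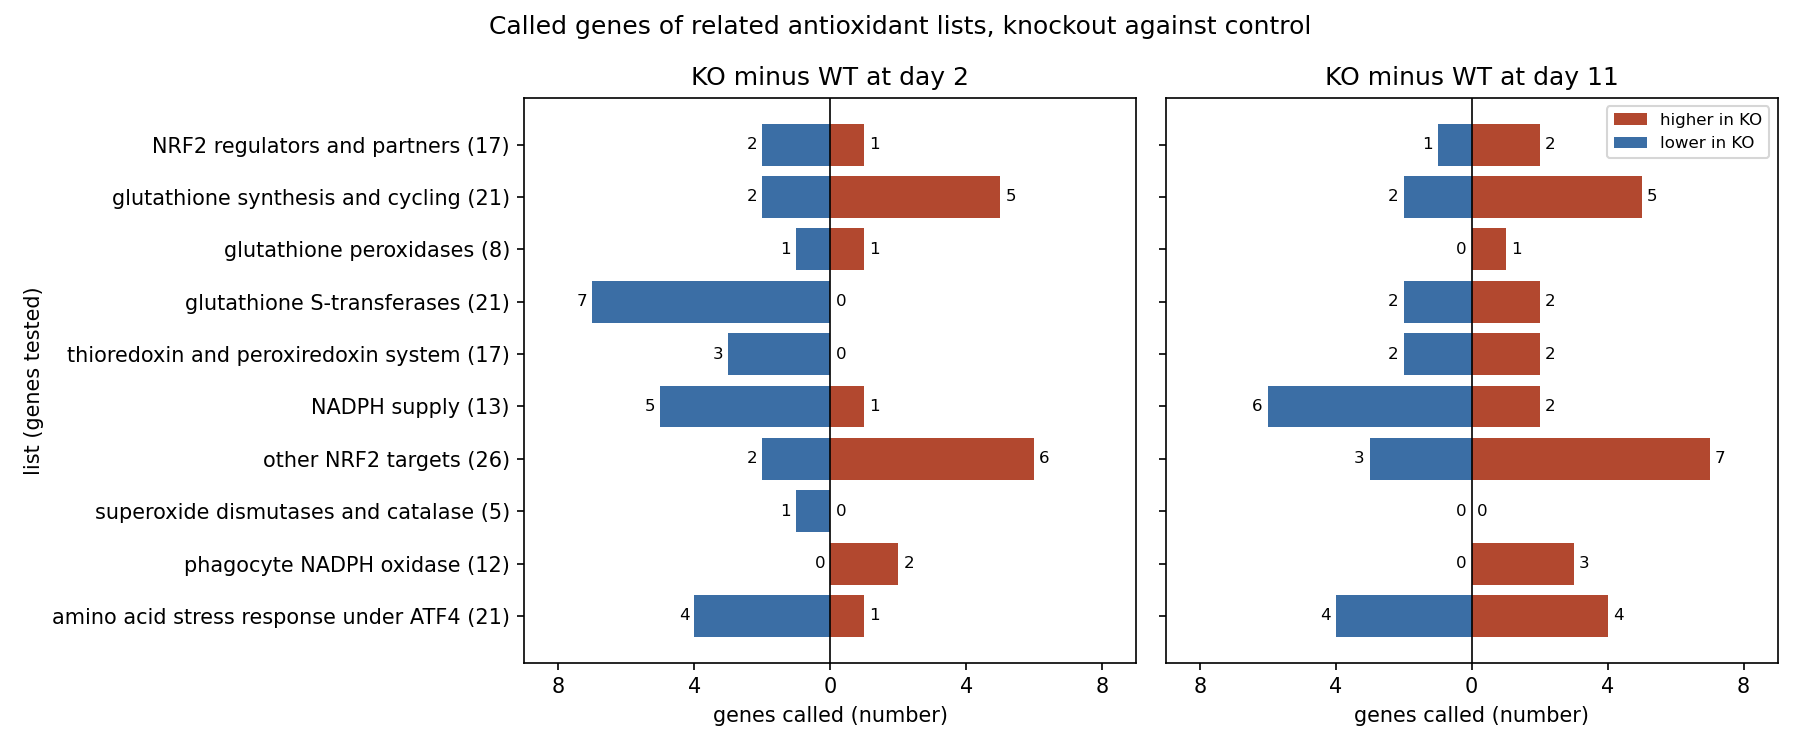
Number of genes called higher (red, right) or lower (blue, left) in KO than in WT at day 2 and day 11 for 10 related lists, with the number of genes tested in parentheses. Glutathione synthesis and cycling and other NRF2 targets have more genes called higher than lower at both ages, and NADPH supply has more called lower than higher. The median difference over all tested genes of the glutathione list was -0.03 at day 2 and 0.05 at day 11. That of other NRF2 targets was 0.08 and 0.10.

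Of 5 superoxide dismutase and catalase genes, with the copper chaperone Ccs among them, 1 was called at day 2 (Ccs, lower by 0.29 ± 0.08, lost under 6 of 15 alternatives). Of 12 genes of the phagocyte NADPH oxidase, which makes superoxide, 2 were called at day 2 and 3 at day 11, all higher in KO. For both lists, the share of all genes called was 20.1% at day 2 and 18.6% at day 11. Ncf4 had 9.526 and 9.583 in KO against 8.750 and 8.798 in WT at day 11 and was higher by 0.78 ± 0.06 there and by 0.82 ± 0.06 at day 2. Ncf1 was higher by 0.34 ± 0.08 at day 2, a call lost without any of the 4 day 2 arrays (adjusted p up to 0.0996), and by 0.54 ± 0.08 at day 11.

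Because Slc7a11 is also an ATF4 target, 21 genes of the amino acid stress response were set beside it. At day 2, 1 was higher and 4 lower in KO, and at day 11, 4 were higher and 4 lower. The shares of all genes called were 20.1% and 18.6%. Ddit4, an inhibitor of mTORC1 signalling, was the gene that rose at day 2, with 6.535 and 5.824 in KO against 5.038 and 4.985 in WT (1.17 ± 0.20, adjusted p = 0.00447). Phgdh, which starts serine synthesis, had 7.589 and 7.926 in KO against 9.710 and 9.695 in WT at day 2 and was lower by 1.94 ± 0.10 at day 2 (adjusted p = 1.79e-05) and by 1.12 ± 0.10 at day 11. Psat1, the next enzyme of that pathway, was lower by 0.82 ± 0.09 and 0.55 ± 0.09. Trib3 (0.93 ± 0.15) and Asns (0.87 ± 0.13), asparagine synthetase, were higher in KO at day 11. Atf4 itself, named for its role, was not called, with -0.10 ± 0.07 at day 2 and -0.08 ± 0.07 at day 11.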

How the data were processed

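Gene expression was measured in 4 groups of 2 pools of sorted mouse lung macrophages on Affymetrix arrays. The deposited table holds log2 values for 28874 probe sets, made by the authors with RMA under R 2.15.2 according to the submitters' processing notes. The arrays share 1 distribution after RMA, which hides any shift common to all genes. How far probes were combined (exon or transcript) is not stated in these notes. Groups come from the sample titles.

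Probe sets were named through the platform annotation. Of them, 21159 had 1 symbol, 1881 had several and 5834 had no entry; 21129 of the 21159 matched RefSeq (GRCm38.p6) by Entrez identifier. For 1368 genes with several probe sets, the one with the highest mean was used. The 10 genes and the related lists were chosen with earlier results of these data known.

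Linear models were fitted to the deposited log2 values in limma 3.58.1 under R 4.3.3, giving each group its own mean and all 8 arrays 1 shared spread (4 residual and 3.77 prior degrees of freedom). P-values were adjusted by the Benjamini-Hochberg method over 18782 genes. Errors are SE unless stated. The code was tested on simulated data. Named genes of the related lists are taken from the 3 largest rises and falls among called genes whose arrays did not overlap, except those named for their role. Alternatives were a trended robust prior, a filter on dim genes, the mean of probe sets, all probe sets, cyclic loess, only the arrays compared, a replicate block and leaving out each array. The number of arrays limits the precision. The plots come from matplotlib 3.10.9 under Python 3.11.15.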

Additional observations from a re-analysis of the deposited data

Results flagged for a closer look

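Of the 169 genes made up of the 10 and the related lists, 6 had a difference between KO and WT that itself changed with age by limma's interaction test. That is 3.55%, beside 3.27% of all 18782 genes. Values are the KO minus WT difference at day 11 minus that at day 2, in log2 units. Ephx1 had 1.67 ± 0.25 (SE), the difference being 2.64 at day 11 against 0.97 at day 2. Its adjusted p was 0.0147, and it lost the call under 2 of 14 alternatives. Gpx3 had 1.25 ± 0.16 (adjusted p = 0.00823) and lost it under 1 of 14, at an adjusted p of 0.0506. Phgdh had 0.82 ± 0.15 (adjusted p = 0.0267) and lost it under 6 of 14. Gstm3 had 0.62 ± 0.13 (adjusted p = 0.0417) and lost it under 10 of 14. In the other direction, Abcc3 had -1.52 ± 0.30 (adjusted p = 0.0388), with WT signals below the array median, and lost the call under 7 of 13, and Ggt5, a gamma-glutamyl transferase relative, had -0.56 ± 0.08 (adjusted p = 0.0132) and lost it under 4 of 14.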

How the results depend on the processing

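No result changed direction while called under any alternative. Slc7a11 and Srxn1 at both ages, Nfe2l2 at day 2, and Ephx1 at both ages and with age in KO were called under every alternative, and the calls lost by Gsr, Gclc, Ephx1, Gclm and Prdx1 stand beside their values above. Leaving out 1 array, the number of genes called was 2223 to 3605 for KO against WT at day 2 (3774 with all arrays), 2059 to 3760 at day 11 (3500), 1541 to 2985 for day 11 against day 2 in KO (2915), 233 to 1292 in WT (996), 197 to 942 for the interaction (615) and 4035 to 4870 averaged over both ages (5116). Of the 10 genes, 4 to 5, 3 to 5, 1 to 2, 0 to 1, 0 to 1 and 5 to 7 were called in the same order of comparisons. The day 2 count was 2428 and 2223 without the first and the second WT array at day 2, and the day 11 count was 2059 without the first WT array at day 11. With only the arrays compared, 1466 genes and 1 of the 10 were called with age in KO, and 1581 genes in WT; fewer samples enter these fits. Nfe2l2 gained a call with age in KO under a trended robust prior (-0.20, adjusted p = 0.0377). Replicate numbers were shared across groups, and the correlation of deviations of same-numbered arrays was 0.25 and 0.24 for 2 pairs of groups and between -0.08 and 0.02 for the other 4. Since not every pair exceeded 0.1, and the labels name no shared litter or day, the numbers were not taken to pair the arrays. With the replicate block, 3692, 3415, 2823, 975, 558 and 5066 genes and 5, 5, 2, 1, 1 and 8 of the 10 were called. The filter on dim genes removed Nqo1, so it gives no value there. With 2 arrays per group, small differences such as those of Gclm and Prdx1 are at the limit of what the arrays can show.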
